A study of Mus musculus with 18 samples.

Results

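The comparison set the muscle transcription factor Mef2c against the histone methyltransferase G9a in control heart muscle cells of the mouse, at the places where the deposited region lists of both targets met. Both were measured by ChIP-seq, in which chromatin fragments bound by an antibody are sequenced. Members were the Mef2c regions and G9a regions on chromosomes 1 to 19 that each covered at least 50% of the other. This gave 119393 shared regions, 22.4% of the 532522 Mef2c regions and 19.3% of the 617784 G9a regions. The 4 libraries used were 2 Mef2c and 2 G9a libraries of the Cre group, out of 18 libraries in 10 groups.

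Cre animals carried the alphaMHC-MerCreMer transgene on a C57BL/6J background, with G9a intact, and supplied cardiomyocyte-enriched populations. In MerCreMer the recombinase is kept inactive until tamoxifen is given, and the alphaMHC (Myh6) promoter drives it in cardiac muscle. The other genotype, here KO, carried the same transgene together with floxed G9a alleles, and its libraries enter only through the authors' listing of regions as lower or higher in KO than in Cre. The sources used here do not state age or tamoxifen schedule. The series text states 2 biological replicates for each antibody. The data hold no RNA levels, so the labelled cell type could not be checked against expressed markers.

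Mef2c is a MADS-box transcription factor that binds A/T-rich sites near muscle genes as a dimer and drives sarcomere, metabolic and fetal heart genes. It can activate with coactivators such as p300 and repress with class IIa histone deacetylases. G9a, encoded by Ehmt2, works with its partner GLP and the zinc finger protein Wiz to add methyl groups to lysine 9 of histone H3, and H3K9me2, the dimethylated form, is a repressive mark. H3K27me3 is the repressive mark of the Polycomb complexes.

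In the Cre libraries the level of a region was its deposited value per kb divided by that library's median over its target's whole list, so that a relative level of 1 is a typical listed region. A relative level ranks a place within its own library and does not compare amounts of Mef2c and G9a protein. The library medians were 152 and 148 per kb for Mef2c and 165 and 153 per kb for G9a. At least 1 of the 4 values was 0 at 1187 shared regions (0.994%). The log2 ratio, Mef2c over G9a, was taken from the mean of log2(relative level + 0.1) of each target's 2 libraries. That scale understates the ratio of low regions.

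To show what the site of the muscle factor looks like where both targets were listed, the 250 bases before 4 gene starts that held the MEF2 consensus and were covered by a shared region are printed, with the MEF2 match in capitals. They come from RefSeq (GRCm38.p6), run 5′ to 3′ on the strand of the gene, and were chosen after their values were seen. Speg encodes a striated muscle kinase of the junctions between membrane and sarcoplasmic reticulum, Mylk4 a kinase of the myosin light chain kinase family and Dupd1 a dual-specificity phosphatase of muscle. Tas2r139, a bitter taste receptor, is the 1 promoter of the 18 with a match at which both Mef2c values lay above both G9a values. Genes outside muscle, such as Il4, Defb47 and Olfr1466, were also among the 18. The matches of Speg, Mylk4 and Dupd1 lie inside both regions, and that of Tas2r139 lies outside both, which cover the start itself.
Speg, chr1:75375047-75375296, plus strand: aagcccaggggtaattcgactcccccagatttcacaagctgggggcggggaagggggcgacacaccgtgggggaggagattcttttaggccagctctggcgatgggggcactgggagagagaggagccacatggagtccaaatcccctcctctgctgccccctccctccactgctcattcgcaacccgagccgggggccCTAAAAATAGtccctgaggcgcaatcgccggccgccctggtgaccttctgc
Mylk4, chr13:32783965-32784214, minus strand: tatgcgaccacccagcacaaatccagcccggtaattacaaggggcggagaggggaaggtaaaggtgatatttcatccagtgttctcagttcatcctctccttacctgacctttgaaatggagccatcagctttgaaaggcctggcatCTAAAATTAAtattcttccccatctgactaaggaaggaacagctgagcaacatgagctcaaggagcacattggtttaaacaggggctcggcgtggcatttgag
Dupd1, chr14:21714577-21714826, minus strand: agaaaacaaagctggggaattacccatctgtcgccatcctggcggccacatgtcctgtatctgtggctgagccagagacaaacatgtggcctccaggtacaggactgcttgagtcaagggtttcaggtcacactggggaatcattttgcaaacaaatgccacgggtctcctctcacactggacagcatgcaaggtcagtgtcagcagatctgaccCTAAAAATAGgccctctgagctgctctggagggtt
Tas2r139, chr6:42140686-42140935, plus strand: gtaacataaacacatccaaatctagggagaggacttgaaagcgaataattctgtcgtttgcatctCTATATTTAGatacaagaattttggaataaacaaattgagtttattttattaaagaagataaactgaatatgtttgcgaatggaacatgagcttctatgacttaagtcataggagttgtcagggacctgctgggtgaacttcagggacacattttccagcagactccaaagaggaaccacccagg

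At the Speg start the relative levels were 0.92 and 1.33 for Mef2c and 1.08 and 1.12 for G9a, with a log2 ratio of 0.01. Its match, CTAAAAATAG, begins 51 bases before the start, and the G9a values lay inside the range of the Mef2c values. The Mylk4 start had 0.93 and 1.15 for Mef2c and 1.35 and 1.24 for G9a, so both G9a values were above both Mef2c values, by a log2 ratio of -0.29 (SE 0.50). The Dupd1 start, which carries the same match as Speg 35 bases before the start, had 1.21 and 1.38 for Mef2c and 0.60 and 1.82 for G9a. There the G9a libraries lay on either side of the Mef2c libraries. The Tas2r139 start had 1.18 and 1.43 for Mef2c and 0.42 and 0.84 for G9a, with a log2 ratio of 1.00 (SE 0.63). None of the 4 passed the limma test described next (adjusted p = 1.00 at each).

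Among promoters of protein-coding genes, shared regions covered 848 starts, and 18 of these promoters (2.12%) held the MEF2 consensus. It was searched on both strands from 250 bases before to 50 after the start. Of all 20084 promoters of protein-coding genes, 527 (2.62%) held it. Among covered promoters with both Mef2c values above both G9a values, 1 of 141 (0.709%) held a match, against 5 of 124 (4.03%) with both G9a values above and 12 of 583 (2.06%) with overlapping values. These shares are a description of few promoters. A region without these letters in this window can hold other forms of the site.

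The question of where the factor and the methyltransferase stood apart was asked over all 119393 shared regions with limma (empirical Bayes with a trend, 2 libraries against 2, two-sided, Benjamini-Hochberg adjustment at 0.05). No region was called with Mef2c higher (0% of regions), and 2 were called with G9a higher (0.00168%). At an unadjusted p under 0.05, 1979 regions had Mef2c higher (1.66%) and 2133 had G9a higher (1.79%), 3.44% together. The fit took each region's variance wholly from the trend over levels, and the median standard error was 0.56 on the log2 scale. The median log2 ratio was 0.01, with quartiles of -0.35 and 0.33. An exact permutation test of 2 values against 2 cannot reach 0.05, so the calls rest on the variance that limma borrows across regions. The test treats libraries as independent, but the regions were listed from these same Cre values. Where both targets were listed lower, Pearson r across regions was -0.517 between the Mef2c libraries and -0.467 between the G9a libraries. What this does to the standard errors and p-values was not tested, so the number of calls is not a checked error rate.

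The first called region, chr4:130206901-130207400 in the Mef2c list, lies 1623 bp from Ldc1, a leucine decarboxylase gene. Its deposited values were 64 and 47 for Mef2c and 691 and 225 for G9a, or relative levels of 0.84 and 0.63 against 5.23 and 1.84. Both G9a libraries were higher than both Mef2c libraries, but they differed from each other almost as much. The log2 ratio was -1.95 (SE 0.39, limma adjusted p = 0.0359). Without the first G9a value it was -1.22 (adjusted p = 1), and without the second Mef2c value the adjusted p was 0.183. The adjusted p ranged from 0.00356 to 1 over 11 alternatives, and 8 of them kept the call.

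The second, chr9:123924001-123924650, has Ccr1, a chemokine receptor gene, as its nearest protein-coding gene, 37476 bp away. The deposited values were 76 and 73 for Mef2c and 981 and 448 for G9a, or relative levels of 0.77 and 0.76 against 5.40 and 2.67. The Mef2c libraries lay close together below the typical region and the G9a libraries far above it. The log2 ratio was -2.18 (SE 0.35, limma adjusted p = 7.71e-05). Without the first G9a value it was -1.68 (adjusted p = 1), and 11 of 13 alternatives kept the call, with adjusted p from 5.5e-05 to 1. At both regions a fit without the variance trend gave an adjusted p of 0.942.

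Seen by the libraries alone, both Mef2c values lay above both G9a values at 18489 shared regions (15.5%), and both G9a values above both Mef2c values at 17692 (14.8%), 30.3% together. At the other regions the values of the 2 targets overlapped. Most of this separation fell where the 2 lists gave opposite directions in KO. Where Mef2c was listed lower and G9a higher in KO (19626 regions), Mef2c was apart above G9a in Cre at 12159 (62.0%) and G9a above Mef2c at 37. Where Mef2c was listed higher and G9a lower (20394 regions), Mef2c was apart above at 9 and G9a at 12488 (61.2%). Where both were listed lower (57128 regions), the counts were 4694 (8.22%) and 2789 (4.88%), and where both were listed higher (22245 regions), 1627 (7.31%) and 2378 (10.7%).

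The levels in Cre followed the listing closely. Shared regions that the Mef2c list gave as lower in KO had a mean relative Mef2c level of at least 0.90 in Cre, with a median of 1.26. Shared regions given as higher in KO had a median of 0.65, with 97.0% of them below 1. For G9a the shared regions listed lower had a median of 1.22 and a lowest level of 0.85. Those listed higher had a median of 0.67, with 92.5% below 1. Of the 4112 regions with an unadjusted limma p under 0.05, 1932 were listed lower for Mef2c and higher for G9a, and 1976 the other way. The part of the listing in the separation of the targets was not tested.

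**Figure D1:**
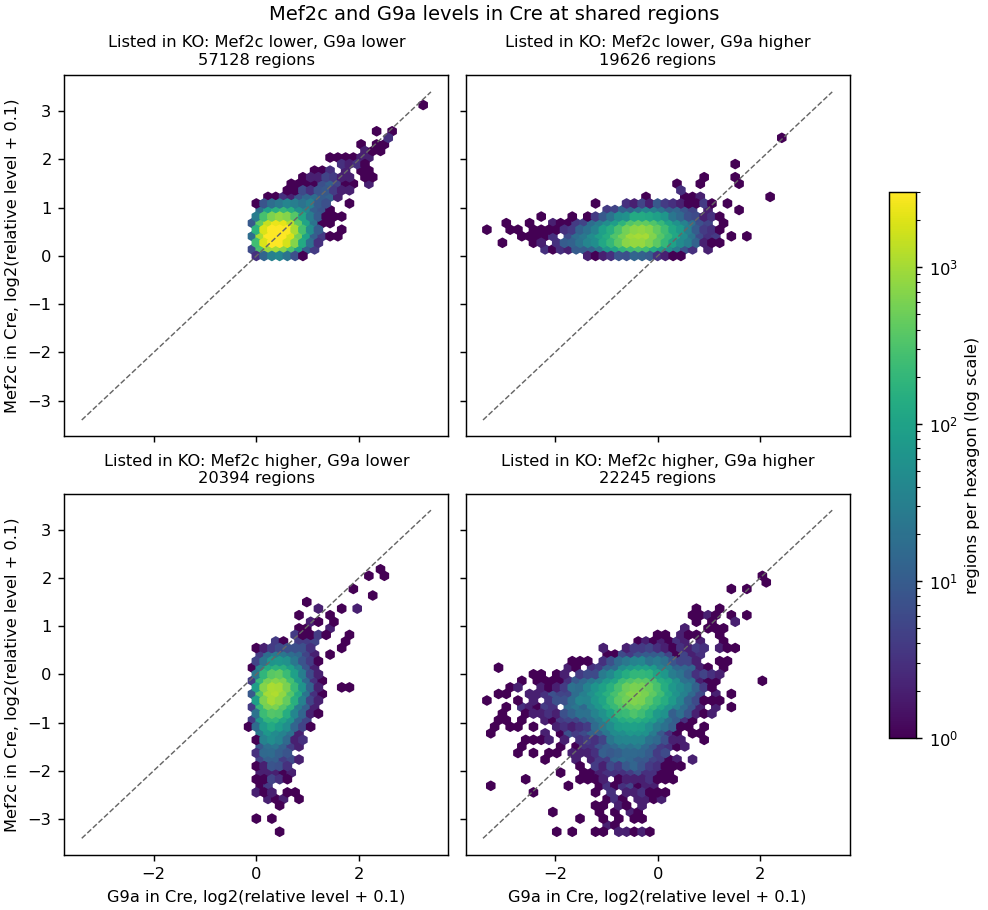
Mean Cre level of Mef2c (vertical axis) against G9a (horizontal axis) at 119393 shared regions, both as log2(relative level + 0.1), in 4 panels by the directions in which the 2 lists give the region in KO; colour is the number of regions per hexagon on a log scale and the dashed line marks equal levels. Regions listed lower in KO sit at or above about the typical level for that target, and the regions far out along the diagonal are mostly in the panel of regions listed lower for both.

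Across regions, single libraries were only weakly related, and libraries of the same target no more than libraries of different targets. On the log2(relative level + 0.1) scale, Pearson r was 0.157 between the 2 Mef2c libraries (Spearman rho 0.153) and 0.162 between the 2 G9a libraries (rho 0.131). The 4 pairs of a Mef2c with a G9a library gave 0.168 to 0.215 (rho 0.156 to 0.205). The means of the 2 targets gave 0.318 (rho 0.296). These are descriptions across regions that share libraries and a listing, not tests. With both listed lower, r was -0.517 between the Mef2c libraries, -0.467 between the G9a libraries and 0.03 to 0.10 between targets, so within a listing a high value in a library tended to go with a low value in its replicate.

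Libraries of the same target agreed more in wide regions. In 49817 shared regions with a mean width of 500 to under 750 bp, r was 0.115 between the Mef2c libraries and 0.130 between the G9a libraries. In the 2206 regions of 1500 to under 2500 bp these were 0.348 and 0.315, and in the 133 regions of 2500 bp or more 0.698 and 0.608. Pairs across targets first fell, from 0.182 to 0.219 below 500 bp to 0.115 to 0.210 at 1000 to under 1500 bp, and then reached 0.615 to 0.806 in the widest regions. The means of Mef2c and G9a had an r of 0.346 below 500 bp, 0.252 at 750 to under 1000 bp and 0.854 in the widest.

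**Figure D2:**
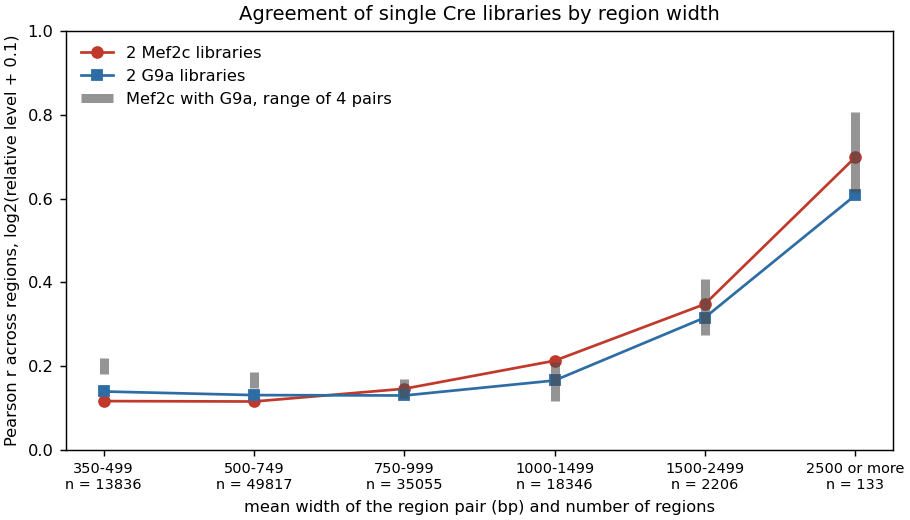
Pearson r across shared regions between single Cre libraries (vertical axis) by the mean width of the region pair in bp (horizontal axis, with the number of regions): red circles are the 2 Mef2c libraries, blue squares the 2 G9a libraries and grey bars the range of the 4 pairs of different targets. All 3 lie near 0.1 to 0.2 up to 1000 bp and reach 0.6 to 0.8 at 2500 bp or more.

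Places high for both targets were defined as the top 10% of shared regions for the mean Mef2c level (above 1.47) and also the top 10% for G9a (above 1.44). There were 2464 of them (2.06% of shared regions), so 20.6% of the top 10% of each target lay in the top 10% of the other. Mef2c was high alone, with G9a below its median, at 3867 regions (3.24%), and G9a alone at 3931 (3.29%). Unrelated rankings would share 10%. For single libraries, 13.7% to 17.3% of the top 10% of a Mef2c library was shared with a G9a library. Between the 2 Mef2c libraries it was 5.41% and between the 2 G9a libraries 7.04%, both below 10%. Few regions were thus in the top 10% of both libraries of a target, and a high mean often rested on 1 library. These classes were made from the measured values, so what follows describes them by width, marks and gene positions, which did not make them, with no test. Their listing in KO, also given, is not such a feature.

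The regions high together were wider and more often had a partner in the lists of the repressive marks. Their median width was 1000 bp in both lists, against 700 bp over all shared regions. An H3K9me2 region overlapped the Mef2c region reciprocally by at least 50% at 42.7% of them, against 31.5% of all shared regions, 37.1% of those with Mef2c high alone and 34.6% of those with G9a high alone. The median relative H3K9me2 level in Cre at these partners was 1.54, against 1.01 over all, 1.08 and 1.04. An H3K27me3 partner was found at 36.9%, against 22.2%, 26.5% and 26.8%, with median levels of 1.22, 1.03, 1.05 and 1.06. The lists of the marks, too, hold only regions listed because KO and Cre differ, and the classes were not matched for width or listing.

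The classes were also set against gene positions. A gene end (within 2 kb of either end of a protein-coding gene) held 8.04% of the regions high together, 6.96% of those with Mef2c alone, 6.82% of those with G9a alone and 6.58% of all. Gene spans held 27.2%, 32.5%, 32.2% and 34.7%. A start covered by both regions, counted over all annotated promoters, was found at 2.07%, 1.06%, 1.12% and 0.974%. The listing compares KO with the same Cre values that made the classes. Of the shared regions listed higher in KO, 97.0% for Mef2c and 92.5% for G9a had a mean Cre level below 1, under the class limits. The shares by listing were thus largely fixed by how the classes were made. Of the regions high together, 94.8% were listed lower in KO for both targets, against 47.8% of all. Of those with Mef2c high alone, 59.2% were listed lower for Mef2c and higher for G9a, and of those with G9a high alone, 59.9% the other way.

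At 107 shared regions (0.0896%) every Cre value of both targets was at least 2, a class added after the values were seen. Their median widths were 2000 bp for Mef2c and 2200 bp for G9a, and the median relative levels 3.02 and 3.07. All 4 values were at least 3 at 29 regions and at least 4 at 8. An H3K9me2 partner was found at 44 (median level 3.05), an H3K27me3 partner at 60 (median 2.38) and either at 77. In 35 of the 44 and 31 of the 60, both Cre values of the mark were at least 2 as well, so these places were high for several antibodies at once. The input libraries were not analysed here, and whether these places were also high without an antibody was not tested.

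These 107 regions lay on 15 chromosomes in 31 stretches with gaps of at most 500 kb, and 6 stretches of at least 5 regions held 64 of them (59.8%). The longest run, chr4:145432501-147793950, held 27 regions with mean Mef2c levels of 2.29 to 5.81 (median 2.97) and G9a levels of 2.29 to 6.19 (median 3.17). It spans a cluster of Zfp genes, which encode zinc finger proteins, with Zfp980, Zfp987, Zfp600, Zfp992, Zfp981, Zfp993, Zfp978 and Zfp988 among the 18 protein-coding genes it overlaps. Of its 27 regions, 7 had an H3K9me2 partner and 12 an H3K27me3 partner. Members of such clusters resemble each other in sequence, and the sources used here do not say how reads that match several copies were placed.

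The other long runs lay beside predicted genes or away from protein-coding genes. On chromosome 5, chr5:15060251-15699900 held 10 regions beside Speer4d and predicted genes, with median levels of 3.73 for Mef2c and 3.89 for G9a. On chromosome 14, chr14:6144751-7349250 held 9 regions among predicted genes, with 3.16 and 2.60, and chr14:43267251-43363000 held 5, with 2.58 and 2.64. On chromosome 1, chr1:85062101-85555750 held 7 regions among predicted genes and Rik transcripts, with 3.90 and 4.48. The 6 regions of chr13:12836951-12967750, with 2.43 and 2.52, overlapped no protein-coding gene. Shorter runs held 4 regions beside Defb33 and AY761185 (chr8:20596301-20948300), with 2.81 and 2.56, and 3 beside the vomeronasal receptors Vmn2r115, Vmn2r116 and Vmn2r117 (chr17:23329501-23532850), with 3.59 and 2.97. Runs of 4 regions that overlapped no protein-coding gene were chr4:3052101-3072150, with 3.12 and 4.63, and chr7:11563501-11608850, with 2.70 and 2.67.

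**Figure D3:**
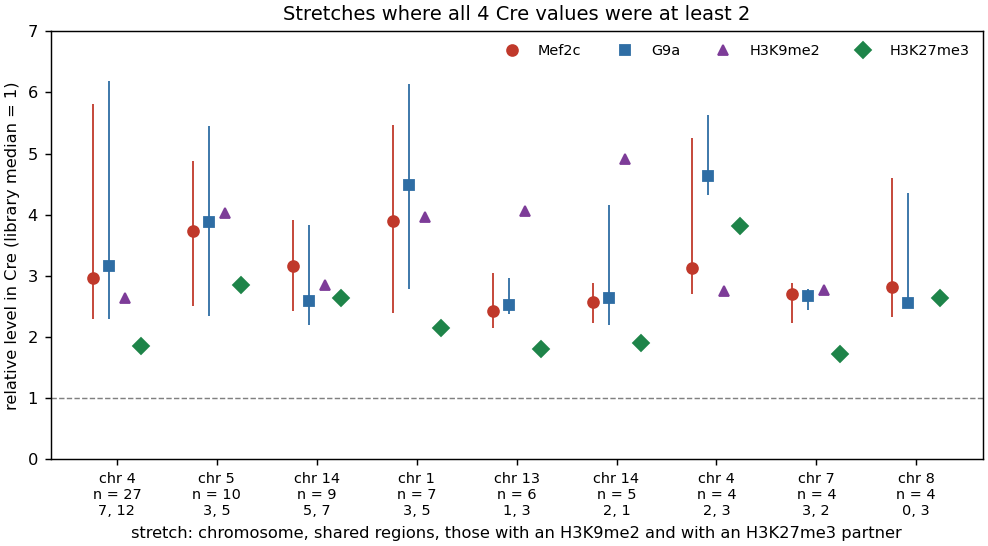
Relative Cre levels (vertical axis, library median 1) in the 9 stretches with the most shared regions at which all 4 values were at least 2: circles (Mef2c) and squares (G9a) are medians over regions, with lines from the lowest to the highest region, and triangles and diamonds are median H3K9me2 and H3K27me3 levels at the regions with a partner. Below each is the chromosome, the number of regions and the numbers with an H3K9me2 and an H3K27me3 partner. The ranges of Mef2c and G9a overlap in every stretch.

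The highest single place was chr17:13305501-13306850, whose nearest protein-coding gene, Tcp10c, is 47722 bp away. Mef2c stood at 8.23 and 8.26 and G9a at 8.13 and 10.9, so all 4 libraries put it at more than 8 times the typical listed region. Inside Dock2, a guanine nucleotide exchange factor of blood cells, chr11:34681301-34683200 had 6.12 and 5.82 for Mef2c and 4.52 and 5.33 for G9a, and an H3K27me3 partner at 3.33 and 3.79. The region chr7:59766701-59772300, 210195 bp from Snrpn, an imprinted splicing factor gene, had 4.74 and 5.13 for Mef2c and 4.67 and 6.83 for G9a. In Dock2 the Mef2c values lay above the G9a values, and at the other places they overlapped.

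Of 20661 protein-coding genes, 6953 (33.7%) had a shared region at a gene end, in 7860 regions. At these, both Mef2c values lay above both G9a values at 1207 regions (15.4%) and the reverse at 1207 (15.4%). An unadjusted limma p under 0.05 was found at 266 (3.38%), and all 4 values were at least 2 at 20 (0.254%). Genes are named below by a rule on regions of at least 500 bp at gene ends: 8 high for both, 8 apart in each direction, and the heart genes whatever their values. The first 3 sets were chosen by their values and have no test.

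Zfp988 was the gene end where both targets were highest together, at chr4:147334801-147336700. Mef2c stood at 5.68 and 5.94 and G9a at 6.28 and 6.09, with a log2 ratio of -0.09 (SE 0.13). The region lies beyond an end of Zfp988 and inside the span of Zfp978, so it cannot be given to either gene alone. A second region of Zfp988 (chr4:147333001-147334050) had 2.70 and 2.64 for Mef2c and 2.30 and 2.35 for G9a, with Mef2c just above. Zfp978 had a region at chr4:147125101-147129500 with 3.68 and 3.49 for Mef2c and 3.18 and 4.71 for G9a, and H3K9me2 at 2.83 and 3.13. A second region of Zfp978 (chr4:147121151-147122350) had 2.51 and 2.29 for Mef2c and 3.50 and 4.48 for G9a, a log2 ratio of -0.70. Zfp993 had 2.59 and 2.76 against 3.21 and 2.84. At these last 2 places the G9a values lay above the Mef2c values.

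The other gene ends high for both were AY761185, Trpm8 and Tmem267. AY761185 (chr8:20945751-20948300) had 4.40 and 4.79 for Mef2c and 3.91 and 4.79 for G9a. Trpm8, the gene of the cold-sensing ion channel, had a region at chr1:88308701-88310600 with 4.50 and 5.01 for Mef2c, 3.46 and 4.42 for G9a and 4.06 and 4.45 for H3K9me2. There both Mef2c values lay just above both G9a values, with a log2 ratio of 0.27 (SE 0.17). Tmem267 (chr13:119611901-119613950) had 4.34 and 3.42 for Mef2c, 3.24 and 4.36 for G9a and 2.59 and 3.26 for H3K27me3, and the targets overlapped.

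Among the gene ends with Mef2c above G9a was Ebf2, a transcription factor gene of brown fat, with 1.18 and 1.33 for Mef2c and 0.36 and 0.07 for G9a (chr14:67429351-67429900). The log2 ratio was 2.26 (SE 1.00). Ctnna2, a neuronal alpha catenin, had 1.25 and 1.32 against 0.88 and 0.00, and Olfr1443, an olfactory receptor, 1.41 and 1.34 against 1.03 and 0.01. At these last 2 the low G9a level rested on 1 library: without the second G9a value the log2 ratio of Ctnna2 was 0.50 and that of Olfr1443 0.38.

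Atxn10 had 1.22 and 2.28 for Mef2c against 0.12 and 0.64 for G9a, and Chst4, a sulfotransferase gene, 1.17 and 2.32 against 0.58 and 0.23. Cog7, a subunit of a Golgi tethering complex, had 1.56 and 1.44 against 0.19 and 0.52. Mettl3, the catalytic subunit of the RNA m6A methyltransferase, had 1.59 and 1.098 against 0.10 and 0.62. Log2 ratios at these 4 ran from 1.89 to 2.13. These 7 gene ends were all listed lower in KO for Mef2c and higher for G9a, and the Mef2c levels themselves were between 1.098 and 2.32. At these ends at least 1 of the 2 G9a values was at 0.23 or below.

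G9a stood farthest above Mef2c at Gdap1, a gene of mitochondrial division, with 0.14 and 0.00 for Mef2c and 1.84 and 1.46 for G9a (chr1:17147251-17147850). The log2 ratio was -3.48 (SE 1.18). Wdr41, a partner of the C9orf72 protein, had 0.01 and 0.66 against 1.70 and 1.32. The neighbours Plscr1 and Plscr2, phospholipid scramblases, shared a region with 0.07 and 0.53 against 1.33 and 1.54. Myh10, the heavy chain of nonmuscle myosin IIB, had 0.26 and 0.14 against 1.27 and 1.21, or -2.20 on the log2 scale (SE 0.99).

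Cngb1, a cyclic nucleotide-gated channel subunit, had 0.01 and 0.60 for Mef2c against 1.23 and 1.11 for G9a. Gabrd, a GABA receptor subunit, had 0.14 and 0.51 against 1.82 and 1.40. A region shared by the ends of Dolk, Nup188 and Phyhd1 had 0.90 and 0.00 against 1.09 and 1.18. Leaving out 1 value brought the log2 ratio to -0.30 at that region, -0.86 at Cngb1 and -1.06 at Wdr41, so the distance there rested largely on 1 Mef2c library. Ldc1, described above, completed the set and was the only 1 of the 8 with a G9a level above 2. At 7 of the 8 the Mef2c list gave the region as higher and the G9a list as lower in KO, and at Gabrd both gave it as higher.

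**Figure D4:**
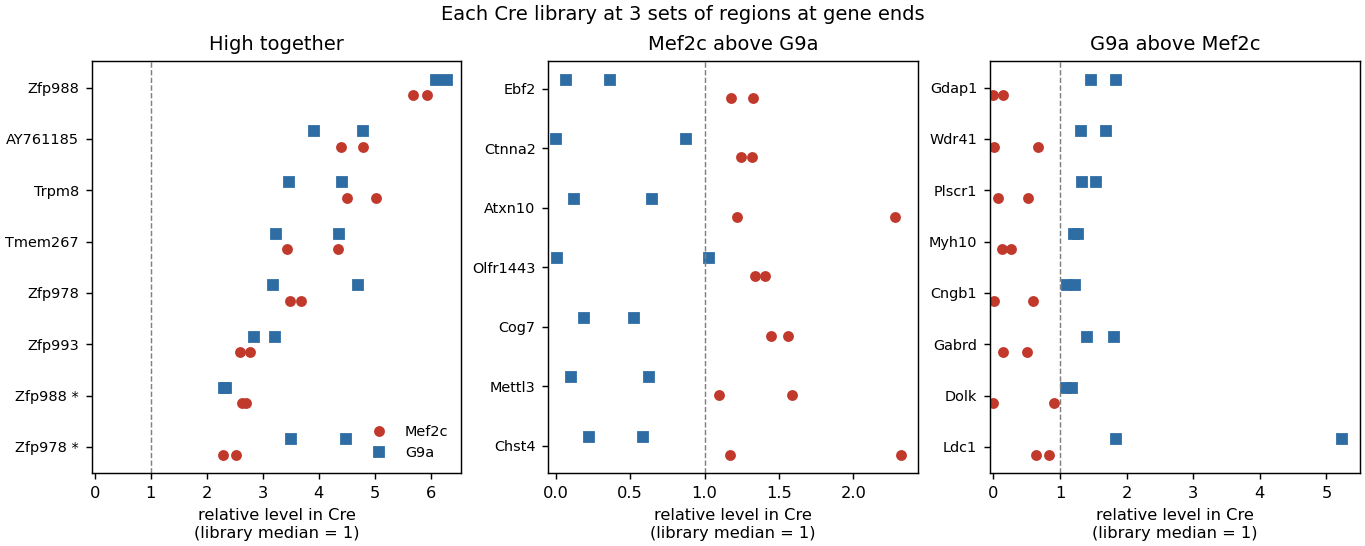
Relative level in each of the 2 Mef2c (red circles) and 2 G9a (blue squares) Cre libraries (horizontal axis, library median 1, dashed line) at 8 gene ends high for both targets, 7 with Mef2c above G9a and 8 with G9a above Mef2c; the axes differ between panels and an asterisk marks a second region of a gene. At the separated ends the higher target mostly lies between 1 and 2, with G9a at 5.23 in 1 library at Ldc1, and the libraries of the lower target often differ, as at Olfr1443, with G9a at 1.03 and 0.01.

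Most heart genes had no shared region at their ends. The lists hold only regions that the authors listed because KO and Cre differ, so a missing region does not show that a target was absent in Cre. Of 67 matched genes of a heart panel (sarcomere, cardiac transcription factors, calcium, channel and fetal genes), 16 (23.9%) had a shared region at an end, against 33.7% of all genes. In their 18 regions both Mef2c values lay above both G9a values at 2 and the reverse at 2, where 15.4% of gene-end regions lay apart in each direction. No heart region was called with limma, and none had an unadjusted p under 0.05. Their median log2 ratio was 0.04, against 0.01 over all gene-end regions. Myh6, Myh7, Nppa, Nppb, Ttn and Ryr2 had no shared region at an end, and those of Acta1, Ankrd1, Cacna1c and Hdac4 had a region shorter than 500 bp and are not described.

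Sarcomere genes with a region at an end included light chains of myosin. Myl7, the atrial regulatory light chain, had 0.75 and 0.10 for Mef2c and 1.44 and 0.83 for G9a (chr11:5894001-5894700). Both G9a libraries were higher there, with a log2 ratio of -1.56 (SE 0.89, limma adjusted p = 1.00). It ranged from -2.61 to -0.50 as each value was left out, and the nearest values of the targets were 0.75 and 0.83. Myl2, the ventricular regulatory light chain, had 1.89 and 0.47 against 1.38 and 0.86, and Myl3, the ventricular essential light chain, 0.67 and 0.50 against 0.40 and 1.96. In both, the libraries of a target differed more than the targets. Myom2, an M-band protein, had 1.60 and 0.89 against 1.19 and 1.42, and Mypn, a Z-disc protein, 1.27 and 0.47 against 0.24 and 0.99.

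Among cardiac transcription factors, Tbx5, which patterns the atria and the conduction system, had 1.07 and 0.52 for Mef2c and 1.64 and 1.32 for G9a (chr5:119793601-119795100). The G9a values lay above, with a log2 ratio of -0.89 (SE 0.54, limma adjusted p = 1.00). Tbx20 had 0.91 and 1.35 for Mef2c and 0.86 and 0.58 for G9a, the other direction, with a log2 ratio of 0.57 (SE 0.63, limma adjusted p = 1.00). The Mef2c gene itself had 1.16 and 1.08 for Mef2c and 1.32 and 1.07 for G9a at chr13:83504101-83504700, levels near the library medians for both targets. Mef2a, its relative, had 0.97 and 0.37 against 0.11 and 0.88. Myocd, the coactivator of serum response factor, had 1.03 and 0.73 against 0.91 and 1.36. Gja5, the atrial gap junction protein, had 1.15 and 1.55 against 1.19 and 1.28, and Sorbs2 1.40 and 1.03 against 1.25 and 0.74. In 8 of the 12 heart genes named here the sign of the log2 ratio changed under at least 1 alternative.

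**Figure D5:**
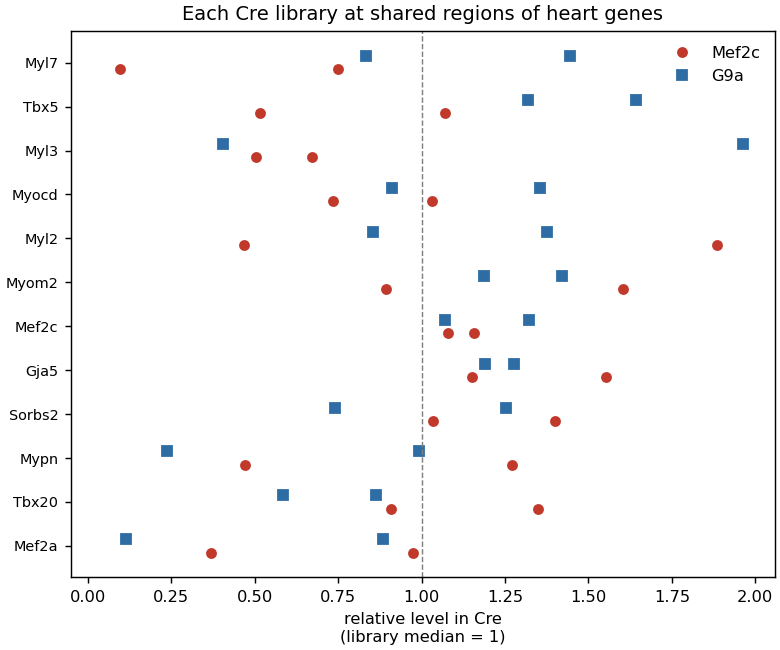
Relative level in each Cre library (horizontal axis, library median 1, dashed line) of Mef2c (red circles) and G9a (blue squares) at 12 heart genes, with the names on the vertical axis in order of the log2 ratio. The values of the targets overlap at 9 genes, and lie apart at Myl7 and Tbx5 with G9a above and at Tbx20 with Mef2c above.

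Within whole gene spans, 28 heart genes held 91 shared regions, 17 with Mef2c apart above and 12 with G9a apart above, near the 15.5% and 14.8% of all shared regions. Hdac9, a class IIa deacetylase that binds MEF2 proteins, held 19, with mean Mef2c levels of 0.49 to 1.60 (median 1.17) and G9a levels of 0.47 to 1.51 (median 1.14). Ppargc1a, the coactivator of mitochondrial genes, held 14, of which Mef2c was apart above at 5 and G9a at 2, with log2 ratios of -0.86 to 1.62. Ryr2, the calcium release channel, held 4, all with log2 ratios below 0 (-0.75 to -0.33) and overlapping values. Wiz, the partner of G9a, held 1, with levels of 1.20 for Mef2c and 1.25 for G9a. Hdac9 and Ppargc1a thus held regions of both directions.

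Of 29 matched MEF2 target muscle genes, 5 (17.2%) had a shared region at an end, against 33.7% of all genes. Their 6 regions had a median log2 ratio of 0.24, against 0.01 over all gene-end regions. Of these 6, 1 lay apart in each direction, where 15.4% of all gene-end regions did. Casq1, the calcium-binding protein of skeletal muscle reticulum, gave both. Its region at chr1:172220951-172221600 had 1.04 and 1.57 for Mef2c and 0.80 and 0.33 for G9a, and the neighbouring region at chr1:172221601-172222700 had 0.45 and 0.85 against 2.29 and 1.20. The log2 ratios were 1.15 (SE 0.68) and -1.29 (SE 0.56), and limma's adjusted p was 1.00 for each. The order of the targets was opposite in these neighbouring regions.

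Other lists of the heart gave few regions, beside a share of 15.4% apart in each direction over all gene-end regions. Sarcomere genes had 8 regions at 7 of 30 genes (0 with Mef2c apart above, 1 with G9a), calcium handling genes 7 at 5 of 21 (0 and 2), cardiac transcription factors 12 at 10 of 27 (1 and 2). Sln, the sarcolipin gene, an inhibitor of the reticulum calcium pump, had 0.55 and 0.60 for Mef2c and 1.52 and 1.26 for G9a, a log2 ratio of -1.14. Zfpm2, a cofactor of GATA4, had 1.40 and 0.87 against 0.21 and 0.93, which overlap. Fatty acid and mitochondrial genes had 3 regions at 3 of 29, and glycolysis genes 4 at 4 of 17. Pgam2, the muscle phosphoglycerate mutase, had Mef2c above G9a, with 1.12 and 1.19 against 0.41 and 0.88, and Ldha, lactate dehydrogenase A, the reverse, with 0.62 and 0.74 against 1.53 and 1.097.

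Genes that brake growth and genes of the chromatin machinery also went both ways. Antihypertrophic genes had 4 regions at 4 of 23 genes, 2 with Mef2c apart above and 1 with G9a. Their median log2 ratio was 0.26, against 0.01 over all gene-end regions. Foxo1, a transcription factor held back by insulin signalling, had 0.63 and 0.75 for Mef2c against 1.00 and 1.88 for G9a. The H3K9 methylation genes had 4 regions at 3 of 22 genes, 0 with Mef2c apart above and 2 with G9a. The median log2 ratio of these 4 was -0.94, but over whole gene spans, with 17 regions, it was 0.0041. Cbx1, a heterochromatin protein, had 0.33 and 0.61 for Mef2c and 0.86 and 1.35 for G9a, and Dnmt3a, a DNA methyltransferase, 1.57 and 1.20 against 1.26 and 0.81, which overlap. Polycomb genes had 8 regions at 6 of 22 genes, 3 of them with Mef2c apart above and 0 with G9a, where 15.4% of all gene-end regions lay apart in each direction. Among them Cbx7 had 2.04 and 1.45 against 0.91 and 0.83.

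Markers of other cells that a cardiomyocyte-enriched preparation can hold were also among the genes with shared regions at their ends. Of all genes, 33.7% had such a region, and 15.4% of gene-end regions lay apart in each direction. Endothelial genes had 21 regions at 12 of 20 genes (60%), 4 with Mef2c apart above and 3 with G9a, near that share. Smooth muscle and pericyte genes had 12 at 9 of 13 (69.2%), 3 and 0. Immune genes had 13 at 9 of 19 (47.4%), 1 and 0, and fibroblast genes 14 at 8 of 20 (40%), 3 and 1. Nos3, the endothelial nitric oxide synthase, had 1.65 and 1.50 for Mef2c and 0.73 and 0.42 for G9a, a log2 ratio of 1.34 (SE 0.60). Icam2, of the endothelial list, went the other way, with 0.10 and 0.70 for Mef2c and 0.77 and 1.43 for G9a. Col1a1, the collagen I chain, had 0.11 and 0.07 against 0.89 and 0.55, with all 4 values below the library medians. Col5a1, also of the fibroblast list, had Mef2c above, with 1.25 and 1.49 against 0.92 and 0.39. Median log2 ratios of these 4 lists lay between -0.15 and 0.18, and the part of other cells in the levels was not tested. In such a mixture more cells of a type and a higher level per cell cannot be told apart.

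The large gene families gave more regions, and their counts are set against the 15.4% of all gene-end regions that lay apart in each direction. Olfactory receptor genes had 361 regions at 308 of 1104 genes, 56 with Mef2c apart above and 58 with G9a, close to that share, and a median log2 ratio of -0.01. Vomeronasal receptor genes had 119 regions at 93 of 352, 20 and 10, with 0.08. Zfp genes had 152 regions at 119 of 391, 18 and 21, with -0.02. All 4 values were at least 2 at 6 of the Zfp regions, where 20 of all 7860 gene-end regions (0.254%) had this. Developmental transcription factors, many of them Polycomb targets, had 28 regions at 19 of 48 genes, 2 and 3, with -0.12. No gene-end region of any of the 26 lists was called with limma, and the unadjusted p was under 0.05 at 14 of the olfactory receptor regions, 5 of the vomeronasal and 2 of the Zfp regions, against 3.38% of all gene-end regions. It was also under 0.05 at 2 endothelial regions and at 1 region each of the MEF2 target, Polycomb and imprinted lists.

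The remaining lists held few regions at gene ends, where 15.4% of all regions lay apart in each direction. Ion channel and junction genes had 6 at 5 of 27 genes (1 with Mef2c apart above, 0 with G9a), immediate early genes 4 at 3 of 19 (0 and 2) and autophagy genes 10 at 9 of 28 (2 and 1). Fosb, an AP-1 subunit of the immediate early response, had 1.02 and 0.08 for Mef2c and 1.24 and 1.08 for G9a at a region with G9a above (chr7:19309551-19310200). At a second region (chr7:19312051-19312900) it had 1.30 and 1.47 against 1.67 and 0.83, which overlap. Germline genes had 5 regions at 5 of 20 genes (1 and 0), imprinted genes 6 at 6 of 18 (2 and 1), ribosomal protein genes 8 at 8 of 38 (1 and 3) and housekeeping genes 4 at 4 of 23 (0 and 0). Tdrd1, a germline gene of the piRNA pathway, had Mef2c above G9a, with 1.26 and 1.29 against 1.17 and 0.22, and the first G9a value lay just below both Mef2c values. Histone genes had 2 regions at 3 of 67 genes, with overlapping values at both.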

How the data were processed

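The submitters' processing notes name BWA 0.7.10-r789, SAMtools 1.1 and the build mm10 (GRCm38). The authors deposited 1 region list per target, with 2 Cre and 2 KO values and a -log10 p in a single text cell. Those deposited values are of another, unstated unit: the sources used here do not state region caller, normalization, replicate numbers or use of input, which leaves the depth unknown, and no count test was run. The median value per region was 89 to 104 in the 4 Cre libraries.

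From these, Mef2c and G9a regions on chromosomes 1 to 19 were paired, 1 partner each, where each covered at least 50% of the other. Values were taken per kb, scaled to each library's median, and tested on log2(relative level + 0.1). The test was limma 3.58.1 in R 4.3.3 over all 119393 pairs (Benjamini-Hochberg, 0.05). A check on simulated data beforehand planted log2 effects larger than those of the called regions, in values drawn independently for each library. It does not speak for smaller effects. Only regions the authors listed because KO and Cre differ (-log10 p of at least 2) have values. Genes are GRCm38.p6 spans without exons or introns. Named genes were protein-coding, not predicted models, with both regions at least 500 bp and within 2 kb of a gene end: the 8 with the highest lowest value, the 8 farthest apart in each direction (the higher target's values above 1), every heart panel gene, and the largest and smallest log2 ratio of each other list. Some items that the rule names are not reported here. The members, the 26 lists and the rules were chosen with earlier results of these data known. The alternatives were a stricter overlap, p, width or level limit, other scalings, pseudocounts and windows, no variance trend, regions of 1 direction, and leaving out each value.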

Additional observations from a re-analysis of the deposited data

How the results depend on the processing

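No paired analysis was possible because the values carry no replicate numbers. Scaling to the median over shared regions or to the summed value, both pseudocounts and a width of at least 500 bp in both regions moved no count of regions by over 1.5 times. With a reciprocal overlap of at least 0.8, shared regions numbered 24406, regions with Mef2c apart above 3532, with G9a apart above 3221, high together 595, Mef2c alone 652, G9a alone 673 and with all 4 values at least 2 27. Under it r of the means was 0.405, G9a was called higher at 0 regions, and the unadjusted p was under 0.05 at 306 with Mef2c and 308 with G9a higher. With the authors' -log10 p at least 10 in both lists, the same quantities were 7850, 1020, 828, 254, 217, 215 and 61, with r 0.539, 1 call, 248 and 269. These settings keep fewer regions. With only regions listed in the same direction, 6321 and 5167 lay apart, Mef2c was alone at 1801 and G9a at 1864, 1 region was called and 52 and 145 had an unadjusted p under 0.05. The r of 0.757 there pools regions listed lower for both targets with regions listed higher for both, within which it was 0.244 and 0.197.

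Leaving out each value in turn gave 37248 to 40538 regions with Mef2c apart and 36200 to 39565 with G9a apart, since 3 values separate more easily than 4, and r from 0.228 to 0.259. Calls ranged from 0 to 1 for Mef2c higher (the 1 without the second G9a value) and from 1 to 4 for G9a higher (1 without the first G9a value, 4 without the second). Regions with an unadjusted p under 0.05 ranged from 1455 to 3235 for Mef2c higher (the latter without the second G9a value) and from 784 (without the first G9a value) to 4610 (without the second Mef2c value) for G9a higher, with 1006 without the second G9a value and 3825 without the first Mef2c value. A target with 1 value left is assumed to vary like the other. A mean level of at least 0.5 gave 4 calls of G9a higher, and a fit without the variance trend 0. The H3K9 methylation list had a median log2 ratio of 0.0041 over whole gene spans. Of 82 named regions, 23 changed sign under at least 1 alternative. The causes were not tested. With 2 libraries a target and an unknown depth, precision was set by the spread between libraries, whose SD was 0.66 on the log2 scale.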
